A study of Homo sapiens with 10 samples.

Results

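The genes of oxidative phosphorylation were compared between tunicamycin-treated and untreated HepG2 cells, a human hepatoma line. They were taken from the count table by name: every row called NDUFA, NDUFB, NDUFC, NDUFS or NDUFV with a number, SDHA to SDHD, UQCR, COX4 to COX8, ATP5, or, for mitochondrial DNA, MT-ND, MT-CO, MT-ATP or MT-CYB. The rule gave 107 of 32738 rows, of which 94 are nuclear and 13 mitochondrially encoded. Untreated cells stayed in regular medium, and treated cells received 2 µg/ml tunicamycin, an inhibitor of N-linked glycosylation, for 17 h. Each condition had 5 libraries, numbered by experiments that the series text places on separate days, and all came from unmodified cells of the same line. The libraries were 3′ tag libraries, in which reads come from the ends of polyadenylated RNAs, and the deposited values were raw counts per gene.

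The respiratory chain passes electrons from NADH (complex I) and succinate (complex II) through the cytochrome bc1 complex (complex III) to cytochrome c oxidase (complex IV), and the proton gradient it builds drives ATP synthase (complex V). All of complex II and most subunits of the others are made from nuclear genes and imported, whereas a small set of core subunits of complexes I, III, IV and V is encoded by mitochondrial DNA, transcribed inside the organelle as long transcripts that are cut into mRNAs. Nuclear and mitochondrial products must be made together, and hepatocytes are among the cells richest in mitochondria.

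The mitochondrial genes lie end to end, and some of them share bases with the next gene on the same strand, which matters for counts per gene. MT-ATP8 (GRCh38, mitochondrial positions 8366 to 8572, plus strand) shares its last 46 bases with MT-ATP6 (8527 to 9207), and MT-ND4L (10470 to 10766) shares its last 7 bases with MT-ND4 (10760 to 12137). Both of these pairs are carried on a shared mRNA. MT-ATP6 and MT-CO3 (9207 to 9990) also share position 9207. The ends below are from the GENCODE transcripts, read 5′ to 3′, with the bases shared by both genes in capitals.
MT-ATP8, 3′ end: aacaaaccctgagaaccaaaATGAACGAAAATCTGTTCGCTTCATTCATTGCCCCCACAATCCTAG
MT-ATP6, 5′ start: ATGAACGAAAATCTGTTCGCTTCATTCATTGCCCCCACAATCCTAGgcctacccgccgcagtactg
MT-ND4L, 3′ end: cataacctaaacctactccaATGCTAA
MT-ND4, 5′ start: ATGCTAAaactaatcgtcccaacaatt

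Nuclear genes of the chain are known for promoters bound by NRF1 and by ETS family factors such as GABP. The 250 bases before the start were searched on both strands in RefSeq's promoters (GRCh38.p14). These could be matched to 69 of the 94 nuclear rows, some of which had too few counts to be tested. Percentages of members below are of these 69. The NRF1 letters GCGCATGCG were found in 10 members, or 14.5%, against 2.02% of 27305 genes. These 27305 are all genes of the promoter set, whether or not they were tested here, and no comparison was made with tested genes alone. ETS letters, CCGGAAGT, were found in 11 members, or 15.9%, against 4.13% of genes. YY1 letters, AAGATGGCG, and the C/EBP-ATF composite letters, TGATGNAAN, were each found in 1 member, or 1.45%, against 0.784% and 3.87% of genes. The windows below, 160 to 61 bases before the start, show matches in capitals for 3 members that are described further on: SDHD, which holds both motifs, ATP5I with the NRF1 letters only, and ATP5H with the ETS letters only, here on the other strand.
SDHD, chr11:112086713-112086812, plus strand: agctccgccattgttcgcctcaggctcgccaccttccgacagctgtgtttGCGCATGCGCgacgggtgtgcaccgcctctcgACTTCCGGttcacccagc
ATP5I, chr4:674337-674436, minus strand: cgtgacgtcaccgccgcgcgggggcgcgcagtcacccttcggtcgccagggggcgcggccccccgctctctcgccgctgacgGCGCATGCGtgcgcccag
ATP5H, chr17:75047030-75047129, minus strand: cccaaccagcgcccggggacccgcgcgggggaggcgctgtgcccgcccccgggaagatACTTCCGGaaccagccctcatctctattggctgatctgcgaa
SDHD and ATP5H rose with tunicamycin and ATP5I fell, with the values given below. Among the 10 members with the NRF1 letters 2 were higher, 1 was lower and 7 had no call, and among the 11 with the ETS letters these numbers were 2, 1 and 8.

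Library totals lay between 2234682 and 5029864 counts, with tunicamycin replicates 5 and 4 the lowest. The unfolded protein response genes HSPA5, HERPUD1, DDIT3 and TRIB3 were all higher with tunicamycin, with log2 fold changes of 2.97, 2.78, 1.42 and 0.80. All 8 hepatoma markers were expressed in both groups, and 5 of them (TTR, APOA1, APOB, FGB and TF) were lower with tunicamycin. Of 7 markers of other cells in the table, PTPRC, COL1A2 and DCN had no count, VWF and COL1A1 had counts in 1 library each, CD68 was low (16.6 to 35.3 normalized counts untreated, 10.1 to 26.1 with tunicamycin, called lower) and ACTA2 was not called. The trend of counts with GC content of the transcript end separated the groups, at -0.00383 to 0.135 log2 units per 10 points in the untreated libraries, with replicate 1 the highest, and -0.0790 to -0.0377 with tunicamycin.

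All of the 13 mitochondrial members and 81 of the 94 nuclear members passed the filter on low counts. Of the nuclear rows not tested, 11 had no count in any library: second identifiers of NDUFA7, NDUFB8, SDHD and UQCR11, the readthrough genes NDUFC2-KCTD14 and ATP5J2-PTCD1, and COX4I2, COX6A2, COX7A1, COX7B2 and COX8C, which are isoforms known from heart, muscle, lung or testis. NDUFA4L2 had 9 counts and COX6B2 had 2 counts in all libraries together. Some rows fit the names but are no subunits: NDUFB2-AS1 is an antisense RNA, COX6A1P2 and ATP5EP2 are gene copies, COX7A2L is a supercomplex factor, and ATP5S and ATP5SL are relatives or assembly factors. NDUFA4, counted here by its name with complex I, is now placed in complex IV.

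Nuclear members moved in both directions in similar numbers. With edgeR's quasi-likelihood test and Benjamini-Hochberg adjustment over 12733 genes, 15 of the 81 were higher with tunicamycin (18.5%) and 17 were lower (21.0%), where 17.6% of all genes tested were called higher, 16.6% lower and 34.2% in either direction. Their median log2 fold change was -0.10, against -0.0033 for all genes, and in the replicate pairs it was -0.09, -0.08, -0.11, -0.02 and -0.08. Of the mitochondrially encoded members, 2 were higher and 3 lower, with a median log2 fold change of -0.11. Groups without overlap were seen for 8 higher and 13 lower nuclear members and for 1 higher and 2 lower mitochondrial members, where 11.7% of all genes had every tunicamycin library above the untreated and 11.9% every one below. With library size as the only scaling, 10 nuclear members were higher and 24 lower. The count of 15 fell to 9 without untreated replicate 2 and to 9 without tunicamycin replicate 5. In bulk RNA, a change in each cell and a change in the mix of cells cannot be told apart.

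**Figure D1:**
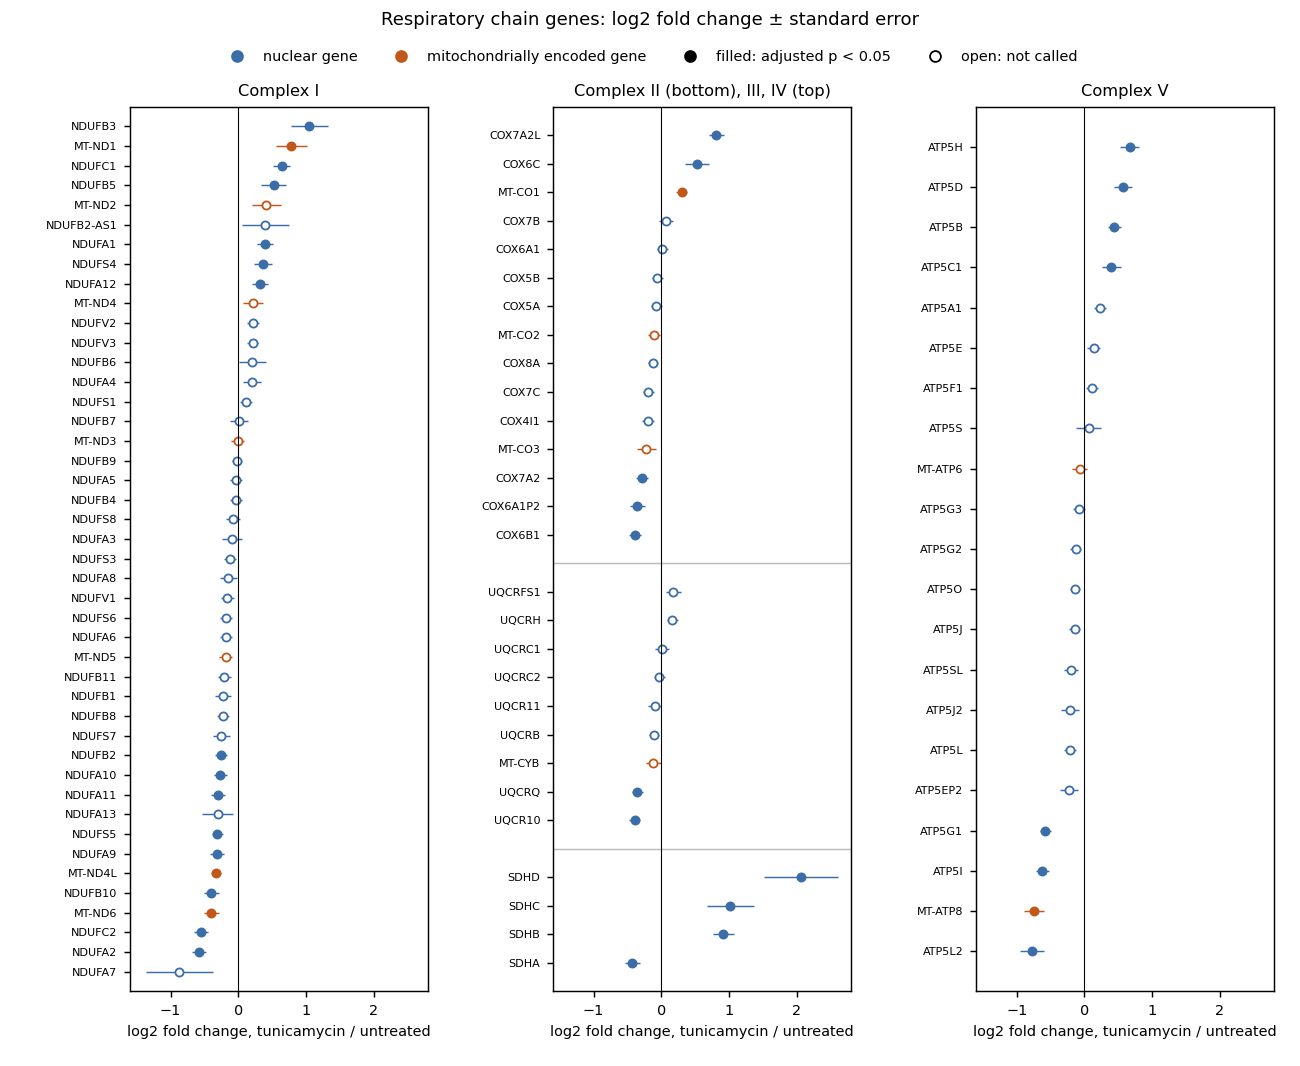
Log2 fold change (tunicamycin over untreated, x axis) with its standard error for 93 of the 94 members tested, by complex; filled points have an adjusted p under 0.05. Succinate dehydrogenase (bottom of the middle panel) has filled points for all 4 genes, 3 to the right of 0, and the other complexes have filled points on both sides or, in complex III, on the left only.

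Untreated replicate 1 was the extreme untreated library for most called nuclear members. Of the 15 higher nuclear members, 14 had their lowest untreated value in that library, and of the 17 lower members 14 had their highest untreated value there. This was not counted over all genes tested, so it does not show a trait particular to the members. The last 500 bases of the transcripts held a median of 42.6% GC in higher members, 47.8% in lower members and 45.6% in those not called. Over all genes tested that had a value the median was 42.2%. Without that library, 24 of the 32 called nuclear members kept their call and direction, and without both replicate 1 libraries all 32 did. After each library's trend with GC content was removed, in the fit with the replicate block, 29 of the 32 were called in the same direction (not NDUFS4, NDUFA11 and COX6A1P2), with 16 nuclear members higher and 24 lower in all. Opposite-strand exons of another gene overlap 11 of the 32 called nuclear members, and 30 of all 81 nuclear members tested. The called ones are 4 higher (NDUFB3, NDUFC1, COX6C and ATP5H) and 7 lower (NDUFA2, NDUFA11, NDUFB2, NDUFC2, UQCR10, UQCRQ and ATP5I). Whether counting used the strand is not given in the sources used here, so those counts are uncertain.

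Succinate dehydrogenase, the enzyme that also belongs to the citrate cycle, was the complex in which every gene was called, with 3 of 4 higher. Gene positions are on GRCh38, whereas the counts were made on hg19. SDHB, the iron-sulfur subunit (chr1:17018664-17054032), had 75.7, 94.5, 90.1, 108 and 98.6 normalized counts in the untreated libraries, in order of replicate, and 111, 203, 183, 169 and 224 in the tunicamycin libraries. Every tunicamycin library lay above every untreated one, with replicate 1 the lowest of each group. The log2 fold change was 0.92 ± 0.16 (SE, as for all log2 fold changes given here, n = 5 each), with an adjusted p of 0.000199 in edgeR's test. SDHD, a membrane anchor (chr11:112086824-112120016), had few counts, 2.58, 14.3, 5.25, 4.48 and 8.13 as normalized counts untreated and 5.91, 24.8, 13.2, 53.6 and 62.6 with tunicamycin. The groups overlapped, since tunicamycin replicate 1 and replicate 3 fell within the untreated range while replicates 4 and 5 were far above it. Within each of the 5 pairs the tunicamycin library was the higher, and the log2 fold change was 2.06 ± 0.55 (adjusted p = 0.00657). SDHC, the other membrane anchor (chr1:161314381-161363206), had 24.1, 92.7, 196, 287 and 217 normalized counts untreated and 236, 309, 401, 329.7 and 377 with tunicamycin. Its untreated libraries spread widely, from a low value in replicate 1 to one in replicate 4 that lay above the lowest tunicamycin library. Its log2 fold change of 1.02 ± 0.35 had an adjusted p of 0.0299, which DESeq2 put at 0.128 and which was 0.0851 without untreated replicate 2, 0.0749 without tunicamycin replicate 3 and 0.0601 without tunicamycin replicate 5. Without both replicate 1 libraries its log2 fold change was 0.84 (adjusted p = 0.00113).

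SDHA, the flavoprotein that oxidizes succinate, went the other way (chr5:218303-257082). Its values were 277, 283, 335, 323 and 368 normalized counts untreated and 264, 230.2, 256, 218 and 199.8 with tunicamycin. The groups did not overlap, although replicate 1 differed little between them. Its log2 fold change was -0.43 ± 0.11 (adjusted p = 0.00415). Near-identical SDHA pseudogenes are known in the genome, so reads of these could be counted on SDHA or left out.

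**Figure D2:**
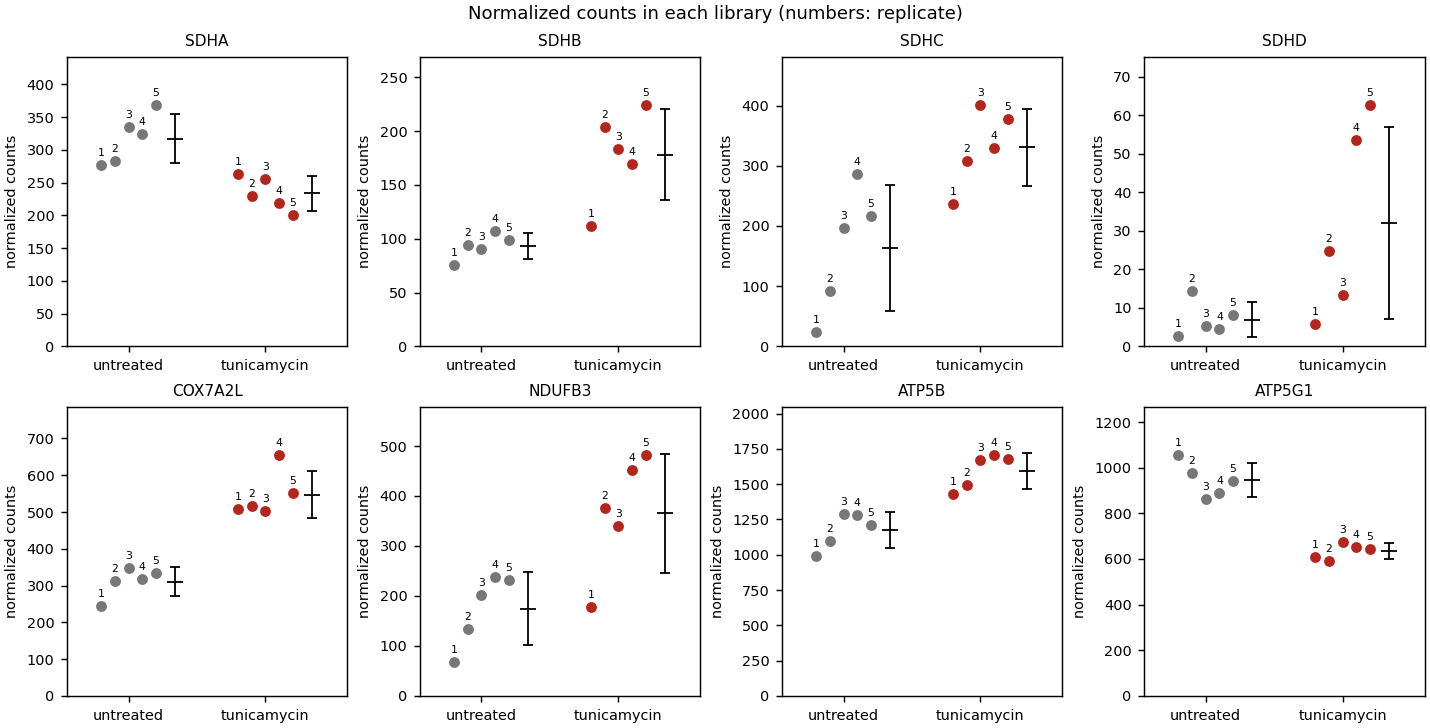
Normalized counts (y axis) of 8 nuclear members in each of the 10 libraries, numbered by replicate, with the mean and SD of each group (n = 5). SDHA and ATP5G1 are lower with tunicamycin in every library, SDHB, COX7A2L and ATP5B are higher in every library, and the groups overlap for SDHC, SDHD and NDUFB3.

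In complex I, the proton-pumping NADH dehydrogenase, 6 of 38 nuclear rows tested were higher and 8 lower. NDUFV2, a subunit of the catalytic core, had 304 to 350.3 normalized counts untreated and 356 to 402 with tunicamycin, which do not overlap. Its log2 fold change was 0.22 ± 0.09 and its adjusted p 0.0575 with edgeR, so it was not called. Other core genes did not share this rise. NDUFS7, NDUFV1, NDUFS3 and NDUFS8 had log2 fold changes of -0.25, -0.16, -0.12 and -0.08, and NDUFS1 had 0.12. These were not called either (adjusted p between 0.129 and 0.617 with edgeR). All of the members that are named next are accessory subunits.

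NDUFB3, an accessory subunit of the membrane arm, had the largest increase in complex I. Its values were 67.1, 134, 202, 238 and 232 normalized counts untreated and 178, 376, 339, 452 and 482 with tunicamycin. Replicate 1 was the lowest of both groups, and its tunicamycin library lay within the untreated range. Its log2 fold change was 1.05 ± 0.27 (adjusted p = 0.00496), and exons of HYCC2 on the opposite strand overlap the gene. NDUFC1 had 275, 314, 372, 425 and 351 normalized counts untreated and 405, 568, 536, 581 and 626 with tunicamycin, and only the highest untreated library reached into the tunicamycin range. It rose by 0.64 ± 0.12 on the log2 scale (adjusted p = 0.000525). NDUFB5, NDUFA1, NDUFS4 and NDUFA12 rose by 0.52, 0.39, 0.37 and 0.32 (adjusted p between 0.0152 and 0.045), and among these only NDUFA1 showed no overlap between groups. With library size as the only scaling none of these 4 passed (adjusted p up to 0.132). NDUFA1 also lost its call without untreated replicate 2 (adjusted p = 0.0526), NDUFB5 in 4, NDUFS4 in 5 and NDUFA12 in 7 of the 10 fits that left out a library, the last 3 among them without untreated replicate 1 (adjusted p = 0.0567, 0.0912 and 0.102).

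The largest called decrease in complex I was that of NDUFA2, an accessory subunit of the arm that binds NADH. It had 589, 517, 517, 535 and 544 normalized counts untreated and 284, 354, 352, 451 and 365 with tunicamycin. All tunicamycin libraries were below all untreated ones, with the largest gap in replicate 1. On the log2 scale the change was -0.59 ± 0.10 (adjusted p = 0.000243), and exons of IK and TMCO6 on the opposite strand overlap the gene. NDUFC2, a membrane-arm subunit like NDUFC1, had 799.6, 622, 677, 604 and 683 normalized counts untreated and 566, 433, 477, 399.8 and 426 with tunicamycin. Again no tunicamycin library reached the untreated range, and the log2 fold change was -0.55 ± 0.11 (adjusted p = 0.000451), opposite to NDUFC1. Exons of THRSP on the opposite strand overlap NDUFC2, and exons of NAA15 overlap NDUFC1 in the same way. NDUFB10, NDUFA9, NDUFS5, NDUFA11, NDUFA10 and NDUFB2 were also lower, with log2 fold changes of -0.40, -0.31, -0.31, -0.29, -0.26 and -0.25. Among these NDUFA9, NDUFA11, NDUFA10 and NDUFB2 lost their calls without untreated replicate 1 (adjusted p = 0.0581, 0.0978, 0.0667 and 0.0858) and in 5, 5, 5 and 8 of the 10 fits that left out a library. NDUFA7 had the lowest log2 fold change of all members, -0.87 ± 0.49, from 5.35 to 22.4 normalized counts untreated and 2.53 to 10.1 with tunicamycin, and did not pass the test (adjusted p = 0.183).

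Complex III had 2 called nuclear members of 8, both small accessory subunits and both lower, with 0 higher in edgeR, in DESeq2 or at an unadjusted p under 0.05. After the GC correction in the fit with the replicate block, 1 was higher and 3 were lower. UQCR10 had 428, 387, 410.3, 421 and 440.1 normalized counts untreated and 333, 288, 349, 299 and 315 with tunicamycin. UQCRQ had 1777, 1692, 1690.3, 1589 and 1681 normalized counts untreated and 1413, 1229, 1442, 1232 and 1269 with tunicamycin. Neither gene's groups overlapped, and within each group the libraries lay close together. The log2 fold changes were -0.40 ± 0.09 (adjusted p = 0.00157) and -0.36 ± 0.08 (adjusted p = 0.00223). The Rieske protein gene UQCRFS1, with 271 ± 36.6 normalized counts untreated and 306 ± 23.6 with tunicamycin, and the hinge protein gene UQCRH, with 1047 ± 49.0 and 1169.5 ± 69.8, did not pass the test (adjusted p = 0.214 and 0.126).

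In complex IV, the terminal oxidase, 2 of 12 nuclear rows tested were higher and 3 lower. COX7A2L, which joins complexes III and IV in supercomplexes and is no subunit of the enzyme itself, had the smallest adjusted p of all members. It had 245, 311, 347, 317 and 334 normalized counts untreated and 509, 517, 503, 655 and 553 with tunicamycin. Even the lowest tunicamycin library lay far above the highest untreated one, and tunicamycin replicate 4 was the highest. The test gave a log2 fold change of 0.81 ± 0.11 (adjusted p = 8.31e-06). Its relative COX7A2, the subunit proper, had 358 to 407 normalized counts untreated and 287 to 339 with tunicamycin, without overlap. COX7A2 fell to a log2 fold change of -0.29 ± 0.09 (adjusted p = 0.0148).

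COX6C, a small structural subunit, had 462, 684, 992, 1064 and 1092 normalized counts untreated and 948, 1218, 1359, 1339 and 1324 with tunicamycin. The tunicamycin values of replicate 1 lay inside the untreated range, and untreated replicate 1 was far below the rest. Exons of another gene on the opposite strand overlap COX6C. Its log2 fold change of 0.53 ± 0.18 (adjusted p = 0.0261) lost its call without untreated replicate 2 (adjusted p = 0.0780) and without tunicamycin replicate 3 or 5 (0.0636 and 0.0552). COX6B1, a subunit on the intermembrane side, had 958, 756, 737, 717 and 743 normalized counts untreated and 639, 585, 610.2, 567 and 573 with tunicamycin. The groups did not overlap, and the log2 fold change was -0.39 ± 0.09 (adjusted p = 0.00248). COX6A1P2 is named as a copy of COX6A1, so that reads may have been split between them. It was called lower, with a log2 fold change of -0.35 ± 0.11 (adjusted p = 0.0173), which became -0.22 (adjusted p = 0.0892) after the GC correction in the fit with the replicate block, while COX6A1 itself had 0.01 ± 0.08 (adjusted p = 0.916). COX4I1, a large nuclear subunit, had 1783 ± 199.6 normalized counts untreated and 1554 ± 125 with tunicamycin and did not pass the test (adjusted p = 0.108).

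In ATP synthase, 4 of 19 nuclear rows tested were higher and 3 lower. Genes of the catalytic F1 head and central stalk were higher or not called, and the genes of small membrane subunits that carry an ATP5 name were lower or not called, whereas USMG5, a small membrane protein of the enzyme under another name, was higher (0.70 ± 0.15, adjusted p = 0.00116). The 6 genes listed for the head and stalk include ATP5O, which belongs to the peripheral stalk. Of these 6, 3 were higher and 0 lower with edgeR, and 4 and 0 with DESeq2 and at an unadjusted p under 0.05. Their median log2 fold change was 0.31. After the GC correction in the fit with the replicate block, 3 were higher and 1, ATP5O, was lower (-0.21, adjusted p = 0.0267). ATP5B, the catalytic beta subunit (now ATP5F1B), had 992, 1099, 1288, 1284 and 1213 normalized counts untreated and 1428, 1492, 1669, 1708 and 1681 with tunicamycin. All tunicamycin libraries exceeded all untreated ones, and the pairs differed by similar amounts. This gave a log2 fold change of 0.44 ± 0.09 (adjusted p = 0.0011). ATP5D, the delta subunit of the stalk, had 149.8, 89.2, 150.5, 155 and 145 normalized counts untreated and 187, 200.4, 186, 234 and 224 with tunicamycin. No overlap was seen, untreated replicate 2 was below the other untreated libraries, and the log2 fold change was 0.57 ± 0.14 (adjusted p = 0.00337). ATP5C1, the rotating gamma subunit, rose by 0.40 ± 0.14 with overlapping groups (adjusted p = 0.0376), a call that was lost in 6 of the 10 fits that left out a library and with library size as the only scaling. The alpha subunit gene ATP5A1 had 708 to 888 normalized counts untreated and 849.7 to 1090.1 with tunicamycin. It did not pass the test, with 0.23 ± 0.09 and an adjusted p of 0.0582, but passed in DESeq2 and with the replicate block. ATP5E and ATP5O, the epsilon subunit and the peripheral stalk's OSCP, had log2 fold changes of 0.14 and -0.14 and no call.

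All 3 called decreases among the ATP5 rows were in genes of the membrane sector or copies of them. Subunit c, which forms the rotating ring, is made from 3 genes that give an identical mature protein. ATP5G1 (chr17:48892765-48895871) had 1056, 978, 864, 889 and 942 normalized counts untreated and 607, 590.4, 675, 654 and 644 with tunicamycin. Its groups were widely separated, with little spread inside the tunicamycin group. It fell to a log2 fold change of -0.58 ± 0.08 (adjusted p = 2.5e-05). The other subunit c genes, ATP5G2 and ATP5G3, had log2 fold changes of -0.13 ± 0.08 and -0.08 ± 0.09 and were not called (adjusted p = 0.245 and 0.509). ATP5I, subunit e, which takes part in the pairing of ATP synthases, had 1662, 1278, 1411, 1382 and 1329.5 normalized counts untreated and 1037, 841, 914, 865 and 932 with tunicamycin. The groups did not overlap in ATP5I, the log2 fold change was -0.62 ± 0.09 (adjusted p = 3.28e-05), and an exon of MYL5 lies opposite. ATP5L2, a copy of the subunit g gene ATP5L, was at 55.5 to 66.3 normalized counts untreated and 22.2 to 48.1 with tunicamycin. It had a log2 fold change of -0.78 ± 0.18 (adjusted p = 0.0024), and ATP5L had -0.21 ± 0.09 (adjusted p = 0.0657). ATP5H, subunit d of the peripheral stalk, was higher, with 312, 446, 542, 563 and 485 normalized counts untreated and 533, 732, 765, 869.6 and 837 with tunicamycin. Its tunicamycin replicate 1 lay within the untreated range and the other 4 lay above it, with a log2 fold change of 0.67 ± 0.14 (adjusted p = 0.00139) and exons of KCTD2 on the opposite strand.

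The 13 mitochondrially encoded genes took 23.8%, 25.0%, 22.7%, 22.9% and 25.2% of all counts in untreated replicates 1 to 5 and 18.3%, 21.5%, 21.3%, 28.8% and 24.6% with tunicamycin. The tunicamycin libraries were the more uneven and reached below and above the untreated range. The 94 nuclear rows together took 1.32%, 1.27%, 1.36%, 1.34% and 1.32% of counts untreated and 1.25%, 1.18%, 1.25%, 1.15% and 1.22% with tunicamycin. In this sum every tunicamycin library was below every untreated one, although the gap between the groups was small. These shares are of raw library totals, without the TMM scaling used for the test. With library size as the only scaling, the median log2 fold change of all genes tested was -0.08, and that of nuclear members was -0.18. The ratio of mitochondrial to nuclear counts was 16.8 to 19.7 untreated and 14.6 to 25.1 with tunicamycin, with tunicamycin replicate 1 the lowest and replicate 4 the highest of all libraries. The order of the groups in this ratio differed between pairs.

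**Figure D3:**
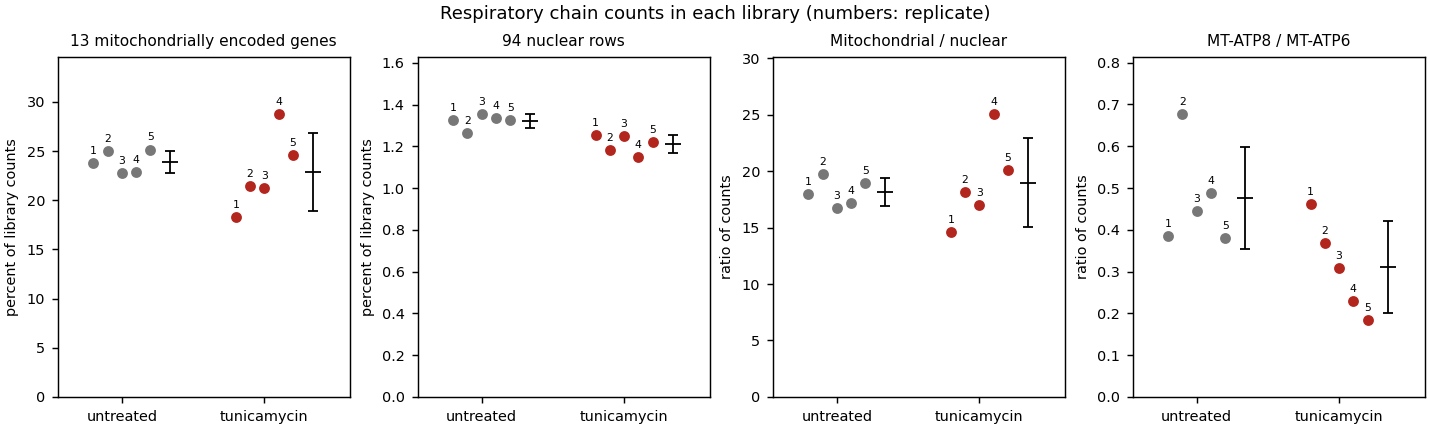
Percent of each library's counts on the 13 mitochondrially encoded genes and on the 94 nuclear rows, the ratio of these counts, and the ratio of MT-ATP8 to MT-ATP6 counts, by library and replicate number with the mean and SD (n = 5). The nuclear share separates the groups (1.27% to 1.36% against 1.15% to 1.25%), and the other measures overlap. Shares are of raw counts, without TMM scaling.

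By complex, the nuclear genes of complex I took 0.405% to 0.430% of counts untreated and 0.366% to 0.401% with tunicamycin, and those of complex III took 0.192% to 0.212% and 0.158% to 0.190%, without overlap in either. Complex IV took 0.222% to 0.247% and 0.206% to 0.233%, and complex V took 0.429% to 0.471% and 0.400% to 0.433%, with overlap. Complex II took 0.00902% to 0.0172% untreated and 0.0145% to 0.0192% with tunicamycin, also with overlap. These sums are led by the genes with most counts, and they are relative to a library in which mitochondrial counts also vary. They also lack the TMM scaling.

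Within the mitochondrial genome the counts of the genes did not move as a block. MT-ATP8, a small subunit of ATP synthase, had 65922, 107297, 68922, 69619 and 64426 normalized counts untreated and 52678, 53357, 42141, 45423 and 30325 with tunicamycin. Every tunicamycin library was below every untreated one, and untreated replicate 2 was far above the rest. The log2 fold change was -0.75 ± 0.15 (adjusted p = 0.00064). MT-ATP6, the proton channel subunit that shares its first bases with MT-ATP8, had 170828, 158315, 154559, 142657 and 169685 normalized counts untreated and 114241, 145164, 136454, 197422 and 163950.5 with tunicamycin. The groups overlapped, with tunicamycin replicate 1 lowest and replicate 4 highest, and the log2 fold change of -0.07 ± 0.11 did not pass the test (adjusted p = 0.66). As a ratio within a library, MT-ATP8 to MT-ATP6 was 0.386, 0.678, 0.446, 0.488 and 0.380 in untreated replicates 1 to 5 and 0.461, 0.368, 0.309, 0.230 and 0.185 with tunicamycin. Tunicamycin replicate 1 lay inside the untreated range, and the other 4 lay below it.

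MT-ND4L, a core subunit of complex I, repeated this arrangement with the gene it overlaps. It had 9672, 10540.0, 9793, 9498 and 10190.0 normalized counts untreated and 7944, 7881, 8117, 8269 and 7292 with tunicamycin. No overlap was seen, and libraries of the same group lay close together. Its log2 fold change was -0.33 ± 0.08 (adjusted p = 0.00204). MT-ND4, downstream of it, had 200844, 173386, 151065, 169409 and 223002 normalized counts untreated and 151487, 184996, 184407, 295983 and 250573 with tunicamycin, with overlap, and its 0.22 ± 0.15 did not pass the test (adjusted p = 0.265). Reads in the shared bases could be counted on either gene of a pair or on none. Each pair is carried on a shared mRNA, and reads of these libraries come from the ends of polyadenylated RNAs. Counts on MT-ATP8 or MT-ND4L, and ratios built on them, therefore do not measure a separate mRNA. What these reads come from was not tested.

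MT-ND1 and MT-CO1 were the mitochondrial genes that rose in the test on all libraries. Without both replicate 1 libraries MT-ND2 and MT-ND4 passed as well, with log2 fold changes of 0.54 (adjusted p = 0.0125) and 0.36 (adjusted p = 0.0195), and MT-ND2 also passed without tunicamycin replicate 1 (0.58, adjusted p = 0.0125). MT-CO1, the catalytic subunit of cytochrome c oxidase, had 11637, 13072, 12538, 12114 and 13161 normalized counts untreated and 14693, 15838, 14947, 16422 and 14974 with tunicamycin. All 5 tunicamycin libraries lay above the untreated range. On the log2 scale the change was 0.30 ± 0.08 (adjusted p = 0.00463). MT-ND1, a core subunit of complex I, had 25851, 41119, 39061, 45201 and 46046 normalized counts untreated and 34884, 58983, 52188, 126316 and 67415 with tunicamycin. Tunicamycin replicate 4 stood far above all other libraries, and replicate 1 of tunicamycin lay within the untreated range. Within the pairs the log2 ratios were 0.43, 0.52, 0.42, 1.48 and 0.55, all above 0. The test gave a log2 fold change of 0.78 ± 0.23 (adjusted p = 0.0135), which was 0.44 (adjusted p = 0.0464) without tunicamycin replicate 4 and did not pass in DESeq2 (adjusted p = 0.0723).

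MT-ND6, the sole member transcribed from the other strand (14149 to 14673, minus strand), had 950.3, 849, 706, 693 and 721 normalized counts untreated and 666, 695, 574, 477 and 553 with tunicamycin. The tunicamycin library was the lower of each pair, although the highest tunicamycin value passed the lowest untreated one. This gave a log2 fold change of -0.40 ± 0.11 (adjusted p = 0.00973). Its mRNA is known for lacking a stable poly(A) tail, from which 3′ tag libraries are primed, and the part of this in its counts was not tested.

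The remaining mitochondrial genes were not called, with log2 fold changes of -0.22 for MT-CO3, -0.19 for MT-ND5, -0.12 for MT-CYB, -0.11 for MT-CO2, -0.01 for MT-ND3 and 0.41 for MT-ND2. MT-ND2 had 92813, 130676, 82827, 106997 and 121419.7 normalized counts untreated and 73618, 115539, 115714, 248245 and 158971 with tunicamycin (adjusted p = 0.15), with tunicamycin replicate 4 more than any other library. That library had the highest tunicamycin value for 11 of the 13 genes, and tunicamycin replicate 1 had the lowest for 9. By pair, 9 of 13 genes were higher with tunicamycin in pair 4, against 2, 4, 4 and 5 in pairs 1, 2, 3 and 5. The median log2 ratio of the 13 genes was -0.31, -0.13, -0.18, 0.36 and -0.09 in pairs 1 to 5, a wider range than that of the nuclear members. Tunicamycin replicate 4 also had the second lowest total of counts and the lowest TMM factor of all libraries (0.892, against 0.969 to 1.04), and their part in its mitochondrial values was not tested.

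**Figure D4:**
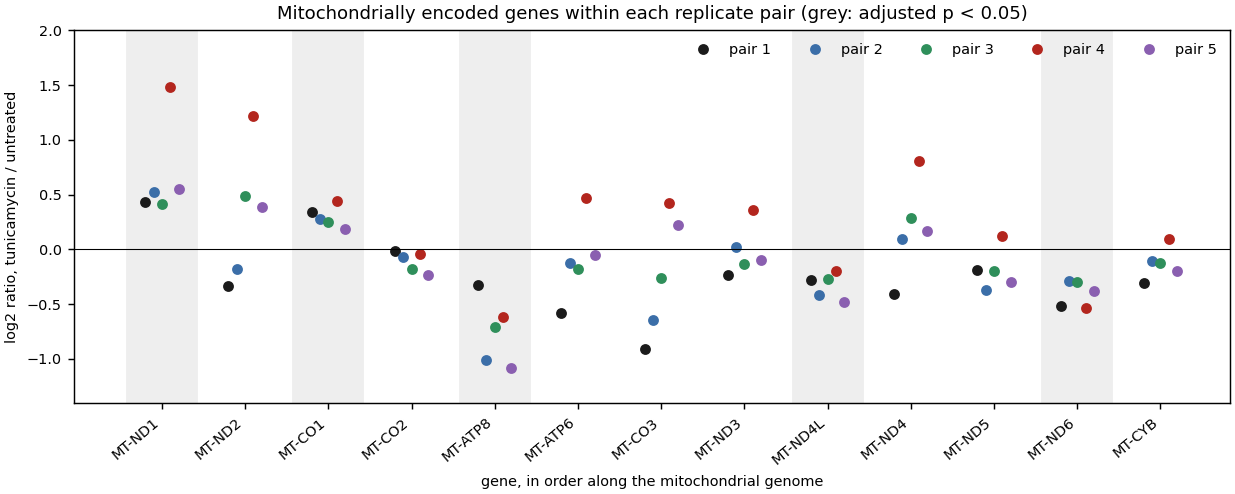
Log2 ratio of tunicamycin to untreated normalized counts (y axis) within each replicate pair for the 13 mitochondrially encoded genes in genome order, with called genes on grey. All 5 pairs have the same sign for MT-ND1, MT-CO1, MT-ATP8, MT-ND4L and MT-ND6, and also for MT-CO2, which was not called; pair 4 is the highest in most genes.

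Of 46 assembly factors tested, which build the complexes without being part of them, 6 were higher (13%) and 4 lower (8.70%), where 17.6% and 16.6% of all genes were, with a median log2 fold change of 0.06 against -0.0033 for all genes. The same background applies to the lists that follow. NDUFAF2, a factor for late assembly of complex I, had 215, 235, 276, 216 and 187 normalized counts untreated and 455, 384, 427, 353 and 361 with tunicamycin. These did not overlap, and its log2 fold change was 0.81 ± 0.11 (adjusted p = 1.43e-05). COA6 and COX18, factors of complex IV, rose by 0.58 and 0.57, and other factors of the same enzyme, PET100, COX16 and COA3, had log2 fold changes of -0.63, -0.61 and -0.58. Without both replicate 1 libraries PET100 lost its call (adjusted p = 0.0964), and 9 factors were higher and 3 lower.

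Of 32 genes that copy, transcribe and process mitochondrial DNA and RNA, 7 were higher (21.9%) and 3 lower (9.38%), with a median log2 fold change of 0.13. POLRMT, the mitochondrial RNA polymerase, had 213, 216, 199, 168 and 178 normalized counts untreated and 147, 127, 139.8, 151 and 123 with tunicamycin, without overlap, and a log2 fold change of -0.50 ± 0.11 (adjusted p = 0.00182). Its initiation factor TFB2M had 10.3, 14.3, 20.1, 21.5 and 25.4 normalized counts untreated and 22.8, 39.7, 54.8, 59.1 and 66.6 with tunicamycin and rose by 1.36 ± 0.29 (adjusted p = 0.00118), and TFAM, which packages the DNA, was not called (0.10 ± 0.09). The polymerase and its initiation factor thus moved in opposite directions. FASTKD3 and POLG2 rose by 1.43 and 0.71, from few counts, and GRSF1 and LRPPRC, which bind mitochondrial RNA, by 0.67 and 0.38. ELAC2, the enzyme that cuts tRNA 3′ ends out of the long transcripts, had a log2 fold change of -0.51, and FASTK, which acts on MT-ND6 mRNA, one of -0.37. Without both replicate 1 libraries FASTK lost its call (adjusted p = 0.0880), and 10 genes were higher and 2 lower.

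Of the 10 regulators known for this program, 4 were higher (40%) and 0 lower with edgeR, with DESeq2 and at an unadjusted p under 0.05, and without both replicate 1 libraries 4 were higher and 1 lower. After the GC correction in the fit with the replicate block, 3 were higher and 2 lower. GABPA, the DNA-binding part of GABP, had 6.89 to 18.3 normalized counts untreated and 18.6 to 40.4 with tunicamycin, rose by 1.22 ± 0.30, and its exons overlap those of ATP5J on the opposite strand. ESRRA, the estrogen-related receptor alpha, had 45.6, 85.6, 114, 158 and 161 normalized counts untreated and 184, 236, 263, 268 and 222 with tunicamycin. All tunicamycin libraries were above the untreated ones, and the log2 fold change was 1.06 ± 0.23 (adjusted p = 0.00121). The coactivators PPARGC1B and PPRC1 rose by 1.09 and 0.48, and PPARGC1A, NRF1, GABPB1, GABPB2, YY1 and CREB1 were not called, with log2 fold changes of -0.20 to 0.17.

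A further list held electron carriers, ubiquinone synthesis genes, metabolite carriers and other genes, among them ATPIF1, USMG5 and C14orf2, which belong with ATP synthase. Of its 31 genes tested, 8 were higher (25.8%) and 4 lower (12.9%), with a median log2 fold change of 0.03. CYCS, cytochrome c, had 632, 709, 751, 720.3 and 745 normalized counts untreated and 1193, 1276, 1291, 1491 and 1328 with tunicamycin. The groups were far apart, and the log2 fold change was 0.89 ± 0.09 (adjusted p = 2.04e-07). CYC1, its partner in complex III, whose name the rule does not match, was at 0.01 ± 0.09 without a call. SLC25A5, an ADP/ATP carrier, rose by 0.89 ± 0.18, and its relatives SLC25A4 and SLC25A6 were not called (0.18 and 0.13). ETFDH, which passes electrons from fatty acid oxidation to ubiquinone, rose by 1.15 ± 0.31 from few counts. COQ5, a ubiquinone synthesis enzyme, was called higher on uneven values of 94.6, 110.1, 137, 276 and 997 normalized counts with tunicamycin, against 72.3 to 119 untreated. ATPIF1, the inhibitor of ATP synthase, had 882 to 1048 normalized counts untreated and 583 to 731 with tunicamycin and a log2 fold change of -0.51 ± 0.09 (adjusted p = 0.000162), and VDAC3 and ETFB were also lower (-0.41 and -0.40). The small ATP synthase proteins USMG5 and C14orf2, which the names of the rule leave out, were called in opposite directions, with 0.70 and -0.40.

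The citrate cycle feeds the chain, and complex II is a step of it. Its list here also holds genes of the pyruvate dehydrogenase complex. Of 18 genes tested, 6 were higher (33.3%) and 1 lower (5.56%), with a median log2 fold change of 0.18. The 6 were FH, IDH3A and MDH2, and PDHB, PDHX and DLD of that complex. FH, the next enzyme after succinate dehydrogenase, rose by 0.60 ± 0.17 (adjusted p = 0.0106), with 125, 169, 236, 278 and 252 normalized counts untreated and 242, 316, 369, 331 and 349 with tunicamycin. Its groups overlapped. PDHB and DLD, of the pyruvate dehydrogenase complex, rose by 0.56 and 0.47, and IDH2, an isocitrate dehydrogenase, had -0.39 ± 0.10 (adjusted p = 0.00345).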

How the data were processed

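HepG2 cells were measured by 3′ RNA sequencing in 5 untreated and 5 tunicamycin libraries. The authors mapped reads to hg19 with Ensembl transcript definitions through the nf-core RNA-Seq pipeline at its default settings and deposited raw counts per gene, unfiltered and without normalization. Which aligner, counting program, strand setting and treatment of reads shared by overlapping genes these defaults set is not given in the sources used here. Columns were matched to libraries by name. Nothing but the separate days is stated about how replicates differ.

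The study's filter was kept (filterByExpr, minimum count 2, minimum total 10), which left 12733 genes. They were tested for condition alone in R 4.3.3 with the quasi-likelihood test of edgeR 4.0.16 after TMM scaling, with a Benjamini-Hochberg threshold of 0.05. Standard errors were derived from the log2 fold change and the F statistic. A normalized count is a count brought to the mean TMM-scaled library size, and log2 ratios within pairs used a pseudocount of 0.5. Shares and ratios of summed counts were described without a test. The fit was tested on simulated data with known changes.

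The members and lists were chosen with earlier results of these data known, so lists were described by counts and medians only. Named members were all mitochondrially encoded members, all of complex II, the 10 called higher and 10 called lower nuclear members with the largest log2 fold change, the 5 with the next smallest p and those with a listed role; from related lists, 3 called in each direction and all regulators. NDUFS4, NDUFA10, NDUFA11, NDUFA12, NDUFB2, NDUFA7, COX7A2, COX6A1, COX4I1, ATP5L, UQCRFS1, UQCRH and the genes of related lists beyond this rule were added after their values were seen.

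The series text places replicates on separate days, so libraries of the same number were taken as pairs. The sample labels give the numbers but no day. The correlation of paired deviations from the group means over 10736 genes was 0.317, 0.0171, 0.0391, 0.122 and 0.0864 for pairs 1 to 5. Alternatives were DESeq2 1.42.0, its size factors, library size only, scaling without mitochondrial genes, no filter, the default filter, the replicate block and each library left out. Leaving out both replicate 1 libraries, and a GC correction over the last 500 bases of the longest transcript with the replicate block, were chosen after seeing the data. Positions are from GENCODE on GRCh38 by Ensembl identifier, and promoters from RefSeq on GRCh38.p14. Depth ranged from 2234682 to 5029864 counts, which limits members with few reads. Results for 1 member are not reported here.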

Additional observations from a re-analysis of the deposited data

Results flagged for a closer look

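The check covered the 55 tested members given by the naming rule and some summed measures, among them the mitochondrially encoded share of counts. Each group of 5 libraries was searched for a single value far from the other 4. Of 114 such groups, 6 held one, where chance gives about 5.7. Both mitochondrial cases fell in untreated replicate 2, with 30258 normalized counts of MT-ND5 against 23967 to 24163 in the other untreated libraries, and 107297 of MT-ATP8 against 64426 to 69619. In the same library ATP5D was low, at 89.2 normalized counts against 145 to 155. Untreated replicate 1 was high for NDUFS7, with 253 normalized counts against 164 to 183, and for COX6B1, with 958 against 717 to 756. Tunicamycin replicate 1 was low for NDUFA1, at 1026 normalized counts against 1152 to 1184. No cause of these values was tested.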

How the results depend on the processing

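The median log2 fold change of nuclear members, -0.10, was -0.18 with library size as the only scaling and -0.060 with the GC correction and the replicate block, and between -0.11 and -0.09 when a library was left out. Library size as the only scaling lowered the median of all genes to -0.08, and the GC correction to -0.03. The count of nuclear members called higher, 15, was 9 to 17 when a library was left out, with 9 without untreated replicate 2 or tunicamycin replicate 5, and 10 to 18 in the other alternatives; the cause was not tested beyond the loss of a library. The count of lower members, 17, ranged from 13 to 18 when a library was left out and from 16 to 24 otherwise. The replicate block uses the pairs by replicate number. With it, 18 nuclear members were higher and 19 lower, all 32 calls remained, and 5 mitochondrial members were called. NDUFA4, NDUFV3, ATP5A1, NDUFB8 and ATP5L gained a call. The mitochondrial count of 5 was 4 to 7 over all alternatives, and the median of mitochondrial members, -0.11, was -0.18 to -0.04 when a library was left out and -0.20 to -0.05 otherwise. No called member turned its direction in any alternative. Of 37 called members, 13 lost the call in 1 or more alternatives, with adjusted p up to 0.132: MT-ND1, SDHC, NDUFA1, NDUFA9, NDUFA10, NDUFA11, NDUFA12, NDUFB2, NDUFB5, NDUFS4, COX6C, COX6A1P2 and ATP5C1. The widest standard errors were those of SDHD (0.55) and NDUFA7 (0.49), which have few counts. Members with more counts whose libraries spread widely, such as SDHC (0.35), NDUFB3 (0.27) and MT-ND1 (0.23), had wider errors than ATP5L2 (0.18).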
